A study of Gallus gallus with 5 samples.

Results

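This set holds 6 genes of cholesterol synthesis, 5 enzymes and 1 regulator, described here on 16 array probes, in 5 lines of the chicken B cell line DT40 that differ in the histone variant H2A.Z. The set was made of 8 genes, HMGCS1, SQLE, LSS, FDFT1, FDPS, IDI1, DHCR7 and INSIG1, and a probe belonged to it when the RefSeq accession given for it in the files carried one of these symbols. HMGCS1 was read by 3 probes, SQLE by 2, LSS by 3, FDFT1 by 2, DHCR7 by 2 and INSIG1 by 4, out of 43603 probes in all and out of 5382 genes that could be named. No probe was matched to FDPS or IDI1, which are not analysed here. The members were chosen by earlier readings of these same arrays, in which cholesterol synthesis genes differed in the comparisons with the double knockout, so the values below describe the arrays and test nothing. All 16 probes were well above background on all 5 arrays.

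Animal cells build cholesterol from acetyl units through mevalonate, then link the resulting isoprenoid units into squalene, which is oxidised, closed into lanosterol and trimmed to cholesterol. The pathway is governed by feedback: when sterols run low in the membrane of the endoplasmic reticulum, SREBP transcription factors are released, move to the nucleus and switch on the genes of most of these enzymes together. INSIG1 is part of that feedback, since its protein holds the SREBP escort in the endoplasmic reticulum when sterols are plentiful, while its own gene is an SREBP target. Dividing lymphoid cells use the pathway to make new membrane.

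RNA came from 1 culture of each line, and each was read on 1 one-colour Agilent array. Of the 5 lines, 3 are double knockout cells made to express, stably, 5KR-H2A.Z, H2A-H2A.Z or H2A.Z.1, and are called the 5KR-H2A.Z line, the H2A-H2A.Z line and the H2A.Z.1 line in the text and DKO+ that form in the plots. The others are the double knockout of the H2A.Z isoforms itself (DKO) and wild-type cells cl18 (WT). Every culture, WT included, had 2 µg/ml tetracycline for 72 hours, given to shut a tetracycline-repressible H2A.Z.1 transgene. For the DKO array the labels disagree: the knockout is named in its title and source name, but its description and genotype field carry the words used for the line that expresses H2A.Z.1. The title was followed. With 1 array per line there is no replicate check and no p-value.

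Both mutant arrays lay on slide 2 and the arrays of the H2A.Z.1 line, DKO and WT on slide 1, so for a mutant line against any of the other 3 lines, line and slide cannot be told apart. Between 29137 spots (DKO) and 30574 spots (WT) of 43803 stood well above background, with no spot saturated. Both probes of H2AFZ, the gene of H2A.Z.1, were lower than in WT in all 4 other lines, by 24.8- to 33.4-fold and by 82.6- to 99.0-fold. In the H2A.Z.1 line minus DKO they gave -0.31 and 0.057 on the log2 scale, with each array scaled to its 75th percentile. Under that scaling they show no clearly higher H2AFZ signal in the line labelled as expressing H2A.Z.1. The sign of these small differences depends on the scaling. Whether these probes read the introduced H2A.Z.1 was not tested, and the lines are called here by their labels. All 8 B cell markers that could be named were well above background on every array. Their summed linear level, to which CD79B gave the most, was highest in DKO (198) and lowest in WT (159). Gene by gene, 4 of the 8 were higher in DKO than in WT, with a median log2 difference of -0.027. Markers of other cell types moved with the lines too. The 5 named T cell markers, nearly all of it CD3D, summed to 65.9 in the 5KR-H2A.Z line, 68.2 in the H2A-H2A.Z line, 71.5 in the H2A.Z.1 line, 75.9 in DKO and 83.4 in WT. Beneath that sum CD3E was higher in DKO than in WT by 3.77 on its brightest probe and by 1.07 to 3.77 over its 3 probes, while CD4 was not above background on any array. The 3 fibroblast markers summed to 1.14 in the 5KR-H2A.Z line, 0.482 in the H2A-H2A.Z line, 1.098 in the H2A.Z.1 line, 1.16 in DKO and 0.272 in WT. COL1A2 was higher in DKO than in WT by 2.36 on its brightest probe. COL3A1 gave only 0.045 on its brightest probe, and -2.74 to 0.31 over its 10 probes. DCN was not above background on any array. The sum of the 4 myeloid markers, most of it CTSS, ran the other way, with 7.89 in the 5KR-H2A.Z line, 12.5 in the H2A-H2A.Z line, 7.72 in the H2A.Z.1 line, 9.08 in DKO and 15.8 in WT. All 4 were lower in DKO than in WT. Between the H2A.Z.1 line and DKO, 2 of the 4 were higher in the H2A.Z.1 line although the sum was lower there. The 3 erythroid markers summed to at most 0.286, in WT, against 0.0861 in DKO, most of it LMO2 in both. The part of these differences in the results was not tested. In bulk RNA, fewer cells of a type and less RNA per cell cannot be told apart.

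A level below is the log2 processed signal minus the 75th percentile of the array's spots, so 0 is the 75th percentile and each step of 1 is a doubling. Levels were compared between arrays for the same probe only. That percentile was lowest for DKO (10.1 on the log2 scale) and 10.4 to 10.6 for the other arrays. The rank of DKO among the arrays can therefore depend on this scaling. The scanner software gave an error of 10.0% on each of these signals, which amounts to 0.20 on the log2 scale for a difference between 2 arrays. Replicate spots of the same probe on the same array differed by an SD of 0.0498 to 0.0649 on the log2 scale. Neither value covers the spread between cultures, which was not measured.

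HMGCS1 makes HMG-CoA, the substrate from which mevalonate is formed. Its brightest probe, A_87_P009322, had a level of 3.78 in the 5KR-H2A.Z line, 4.08 in the H2A-H2A.Z line, 3.59 in the H2A.Z.1 line, 3.77 in DKO and 3.79 in WT. On this probe the H2A-H2A.Z line stood highest and the 5KR-H2A.Z line, DKO and WT lay within the scanner error of each other. Probe A_87_P056866 read 1.62 in the 5KR-H2A.Z line, 1.94 in the H2A-H2A.Z line, 1.61 in the H2A.Z.1 line, 2.10 in DKO and 1.93 in WT. The dimmest, A_87_P253813, read 0.56 in the 5KR-H2A.Z line, 1.22 in the H2A-H2A.Z line, 0.68 in the H2A.Z.1 line, 1.39 in DKO and 0.77 in WT. On both of these DKO stood highest, followed by the H2A-H2A.Z line. The 3 probes thus placed the HMGCS1 signal of DKO differently, and the files give no reason to prefer one.

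The 3 enzymes that make squalene and close its rings were FDFT1 (squalene synthase), SQLE (squalene epoxidase, a rate-limiting step) and LSS (lanosterol synthase). FDFT1 on probe A_87_P058536 had levels of 5.74 in the 5KR-H2A.Z line, 5.84 in the H2A-H2A.Z line, 5.59 in the H2A.Z.1 line, 6.32 in DKO and 5.77 in WT. DKO stood above each of the other arrays by at least 0.48, and those 4 lay within 0.24 of each other. The second FDFT1 probe, A_87_P036729, read 1.05 in the 5KR-H2A.Z line, 1.07 in the H2A-H2A.Z line, 0.86 in the H2A.Z.1 line, 1.45 in DKO and 0.93 in WT, with the same 2 arrays at the ends. LSS on A_87_P036122 read 5.94 in the 5KR-H2A.Z line, 5.99 in the H2A-H2A.Z line, 5.78 in the H2A.Z.1 line, 6.25 in DKO and 5.83 in WT. DKO again stood highest and the H2A.Z.1 line lowest. On A_87_P145243 the LSS level was 3.93 in the 5KR-H2A.Z line, 3.96 in the H2A-H2A.Z line, 3.79 in the H2A.Z.1 line, 4.26 in DKO and 3.87 in WT. On A_87_P284678 it was 0.60 in the 5KR-H2A.Z line, 0.48 in the H2A-H2A.Z line, 0.32 in the H2A.Z.1 line, 0.65 in DKO and 0.42 in WT. As scaled here, DKO was highest and the H2A.Z.1 line lowest on all 3 LSS probes. On A_87_P284678 DKO led the 5KR-H2A.Z line by only 0.05, inside the scanner error. On all 3 LSS probes the difference between DKO and WT changed sign in at least 1 other processing setting.

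For SQLE, probe A_87_P036692 had levels of 5.57 in the 5KR-H2A.Z line, 5.44 in the H2A-H2A.Z line, 5.25 in the H2A.Z.1 line, 5.97 in DKO and 5.76 in WT. Probe A_87_P281198 had levels of -1.46 in the 5KR-H2A.Z line, -1.66 in the H2A-H2A.Z line, -1.75 in the H2A.Z.1 line, -1.22 in DKO and -1.22 in WT. As scaled here, all 3 complemented lines lay below both WT and DKO on both SQLE probes, and the H2A.Z.1 line lay lowest. On A_87_P281198 the difference from DKO changed sign in at least 1 other processing setting in each of these 3 lines.

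DHCR7, which carries out the last reduction to cholesterol, stood out most in DKO. Probe A_87_P017333 read 2.73 in the 5KR-H2A.Z line, 2.68 in the H2A-H2A.Z line, 2.55 in the H2A.Z.1 line, 3.31 in DKO and 2.66 in WT. Probe A_87_P083636 read 0.28 in the 5KR-H2A.Z line, 0.57 in the H2A-H2A.Z line, 0.43 in the H2A.Z.1 line, 1.17 in DKO and 0.48 in WT. DKO lay above the next array by 0.59 on the first probe and 0.60 on the second, while the other 4 lines overlapped in their order.

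INSIG1, the only regulator in the set, had a different order of lines. Probe A_87_P192328 had levels of 4.24 in the 5KR-H2A.Z line, 4.94 in the H2A-H2A.Z line, 4.49 in the H2A.Z.1 line, 4.79 in DKO and 4.60 in WT. Probe A_87_P200608 read 4.30 in the 5KR-H2A.Z line, 4.71 in the H2A-H2A.Z line, 4.31 in the H2A.Z.1 line, 4.62 in DKO and 4.44 in WT. On both of these the H2A-H2A.Z line stood highest and the 5KR-H2A.Z line lowest. Probe A_87_P051196 read 3.56 in the 5KR-H2A.Z line, 4.08 in the H2A-H2A.Z line, 3.44 in the H2A.Z.1 line, 3.82 in DKO and 3.64 in WT. Probe A_87_P037190 read 3.21 in the 5KR-H2A.Z line, 3.65 in the H2A-H2A.Z line, 3.44 in the H2A.Z.1 line, 3.82 in DKO and 3.61 in WT. The H2A-H2A.Z line was the highest array on 3 of the 4 INSIG1 probes and DKO on the fourth, and the 5KR-H2A.Z line was the lowest on 3 and the H2A.Z.1 line on the other.

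**Figure D1:**
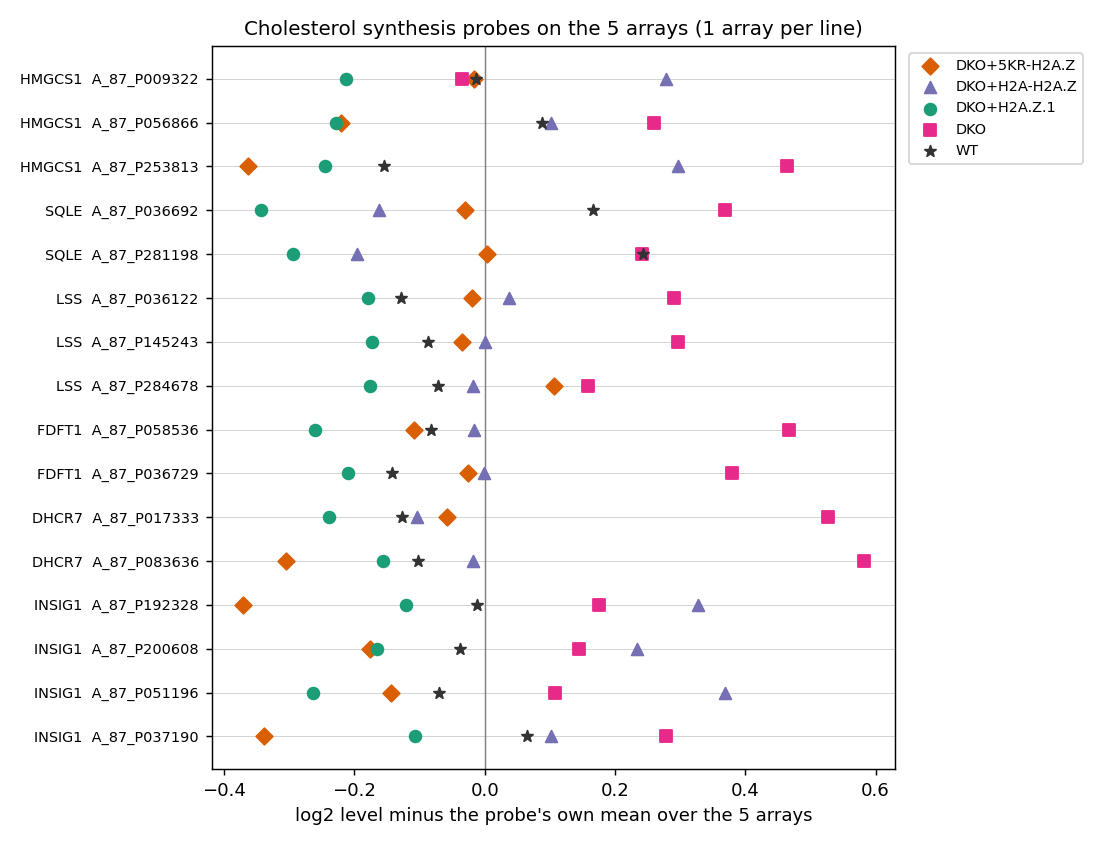
Level of each of the 16 probes on each array (x axis, log2, minus the probe's own mean over the 5 arrays), with the probes down the page by gene and 1 point per line. As scaled here, DKO is the rightmost point on 11 probes, the H2A-H2A.Z line on 4 and WT on 1. The H2A.Z.1 line is the leftmost on 11 and the 5KR-H2A.Z line on 5.

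Over the set, as scaled here, DKO was the highest of the 5 arrays on 11 of 16 probes (68.8%). DKO was also the highest on 43.8% of all probes well above background on every array, and on 62.6% of the brightest 25% of probes, where 12 of the 16 lie. The set's share was therefore near that of other bright probes. DKO led the next array by more than the scanner error on 6 of the 16, against 24.5% of all probes and 36.1% of bright ones. At the other end, the H2A.Z.1 line was the lowest on 11 of 16, against 21.3% of all probes and 26.1% of bright ones. On none of those 11 did the H2A.Z.1 line lie below the next array by more than the scanner error, as it did on 4.99% of all probes and 2.06% of bright ones.

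The first comparison asked what differed where both H2A.Z genes were removed. DHCR7 was 1.57- and 1.61-fold higher in DKO than in WT on its 2 probes, and FDFT1 was higher by 0.55 and 0.52 on the log2 scale. LSS was higher by 0.42, 0.38 and 0.23, and INSIG1 by 0.19, 0.18, 0.18 and 0.21, close to the scanner error of a difference. HMGCS1 gave -0.02, 0.17 and 0.62, and SQLE 0.20 and -0.00. Both DHCR7 probes, both FDFT1 probes and A_87_P253813 of HMGCS1 were higher in DKO in all 8 processing settings tried, while the other 11 differences changed sign in at least 1 of them.

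The median of the 16 differences between DKO and WT was 0.22, between -0.02 and 0.69, and 14 of 16 were above 0, as were 56.7% of all probes and 72.7% of the brightest 25%. After spike-in scaling the median turned to -0.27 with 5 of 16 above 0, and after cyclic loess 8 of 16 were above 0. The median of 30964 probes was 0.10 and that of the brightest 25%, which hold 12 of the 16, was 0.25. Of the 16, 3 were at least 1.5-fold higher in DKO (both DHCR7 probes and A_87_P253813 of HMGCS1), none was as much lower, and none reached 2-fold. Past 1.5-fold in DKO lay 14.3% of all probes upward (13.8% of bright ones) and 19.9% downward, and past 2-fold 4.62% upward and 12.6% downward. These counts were made in a comparison that the choice of the set drew on, and nothing is read from them.

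The second comparison set the line labelled as expressing H2A.Z.1 against the knockout. As scaled here, the H2AFZ probes did not separate these 2 arrays in the direction of their labels. In the H2A.Z.1 line minus DKO, A_87_P037084 gave -0.31, beyond the scanner error and opposite to the labels. A_87_P194348 gave 0.057, inside that error. Spike-in scaling moved every probe of this comparison upward together, taking the median of all probes from -0.15 to 0.40. That shift puts both H2AFZ probes higher in the H2A.Z.1 line, so they do not settle the labels either way. Every one of the 16 probes was lower in the H2A.Z.1 line than in DKO, though 10 of 16 were higher there after scaling to spike-in probes. Among all probes 39.4% were higher, and among the brightest 25% of them 22.1%. The difference was -0.77 and -0.74 for DHCR7, -0.73 and -0.59 for FDFT1, -0.71 and -0.54 for SQLE, and -0.47, -0.47 and -0.33 for LSS. HMGCS1 gave -0.18, -0.49 and -0.71, and INSIG1 gave -0.30, -0.31, -0.37 and -0.39. The same SQLE probes gave 0.20 and -0.00 between DKO and WT. Spike-in scaling turned the median to 0.065 and moved the median of all probes to 0.40.

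The median of the 16 was -0.48, against -0.15 over 30489 probes and -0.27 over the brightest 25%. Past 1.5-fold, 6 of 16 were lower in the H2A.Z.1 line: both DHCR7 probes, both FDFT1 probes, A_87_P036692 of SQLE and A_87_P253813 of HMGCS1. The count was 3 after quantile normalization, 1 after cyclic loess, and 0 after spike-in scaling and in the authors' value table, while these 6 were lower in the H2A.Z.1 line in all 8 settings. The share among all probes was 12.8% and among bright probes 10.8%. None of the 16 was 2-fold lower, as 3.05% of all probes were. This comparison shares the DKO array with the one before. The choice of the set drew on this comparison too.

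**Figure D2:**
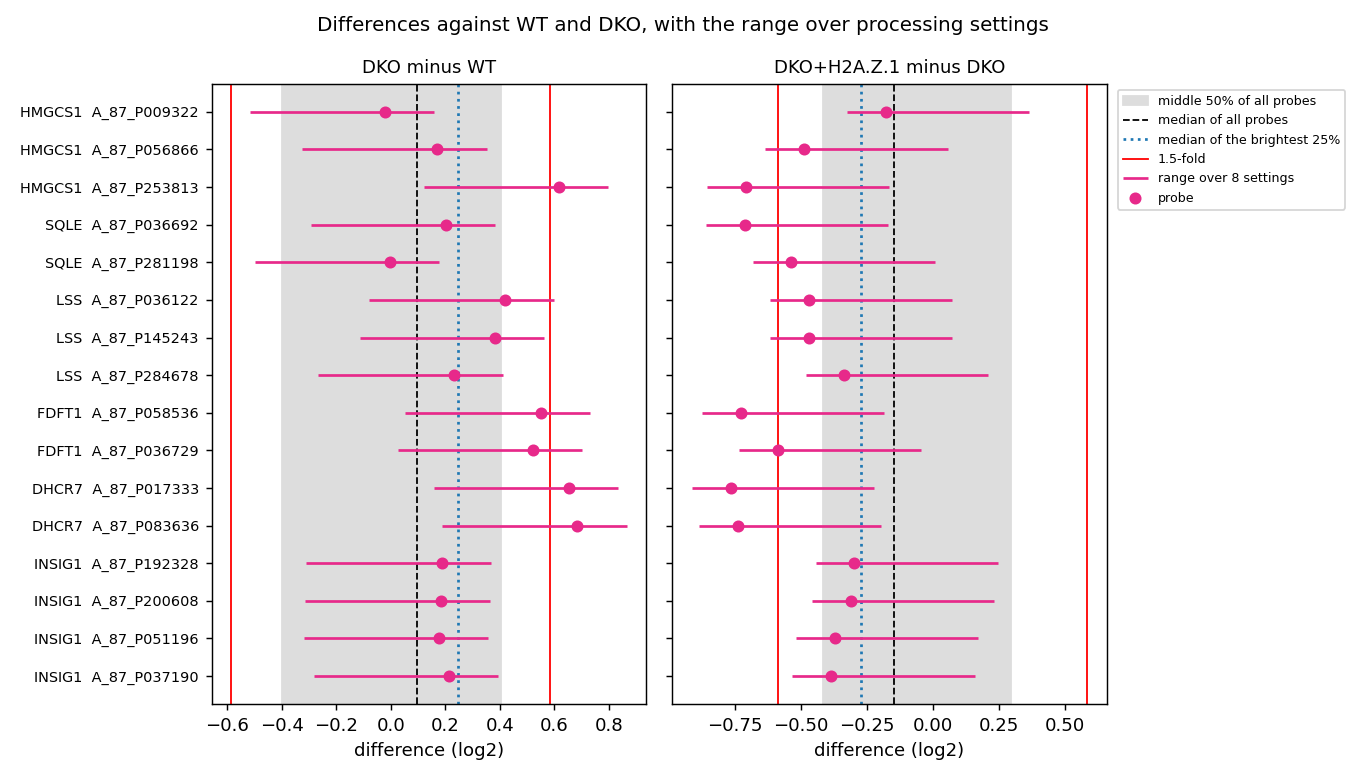
Log2 difference of each probe (x axis) in DKO minus WT and in the H2A.Z.1 line minus DKO; points are the differences as reported, bars their range over 8 processing settings, grey the middle 50 percent of all probes, and vertical lines the median of all probes, the median of the brightest 25% and the 1.5-fold limits. All 16 points lie left of 0 in the right panel, though the bars of 10 cross 0, the DHCR7 points are furthest from 0 in both, and the long bars show how far the choice of scaling moves these comparisons.

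The H2A.Z.1 line against WT does not use the DKO array, but it shares the H2A.Z.1 array with the comparison before. All 16 probes were lower in the H2A.Z.1 line, with a median of -0.12, against -0.03 over 31117 probes, of which 45.9% were above 0 (44.6% of bright ones). SQLE differed most, by -0.51 on A_87_P036692 (1.42-fold lower) and -0.54 on A_87_P281198 (1.45-fold lower). HMGCS1 gave -0.20, -0.32 and -0.09, of which only -0.32 was beyond the scanner error of a single difference. The other 11 probes lay between -0.19 and -0.05, inside that error. None of the 16 was 1.5-fold apart, while 9.62% of all probes were at least that much lower and 5.64% that much higher. Of the 16 signs, 15 held in all 8 settings and the exception was A_87_P036122 of LSS.

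The third comparison set the 2 mutant lines against each other, on the same slide. INSIG1 was lower in the 5KR-H2A.Z line than in the H2A-H2A.Z line on all 4 probes, with differences of -0.70 (1.62-fold lower), -0.41, -0.51 and -0.44. HMGCS1 was lower on all 3, with differences of -0.29, -0.32 and -0.66. These 7 differences kept their sign in all 8 settings. The remaining 9 probes, of SQLE, LSS, FDFT1 and DHCR7, lay between -0.29 and 0.20: SQLE gave 0.13 and 0.20, LSS -0.06, -0.04 and 0.13, FDFT1 -0.09 and -0.02, and DHCR7 0.05 and -0.29. INSIG1 and SQLE had the lowest and the highest median of the 6 genes here, and INSIG1 minus SQLE was -0.64. Since the pair was picked as the extremes of these values, a wide gap was given in advance and nothing is read from it. Scaling by 1 factor per array cannot move this gap. Normexp, quantile normalization and cyclic loess can, and the gap under them is not given.

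The median of the 16 was -0.19 between the mutant lines, against 0.04 over 30486 probes and 0.05 over the brightest 25%. Above 0 were 4 of 16, beside 56.3% of all probes and 61.1% of bright ones. Past 1.5-fold, 2 of 16 were lower in the 5KR-H2A.Z line, A_87_P192328 of INSIG1 and A_87_P253813 of HMGCS1. That share stands beside 7.12% of all probes and 1.62% of bright ones. The HMGCS1 probe is not itself among the bright ones, with a mean level of 0.92 where theirs starts at 0.99. The other 5 probes of these 2 genes did not reach 1.5-fold. With 1 culture of each line, a difference between the mutants and a difference between any 2 cultures cannot be told apart.

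**Figure D3:**
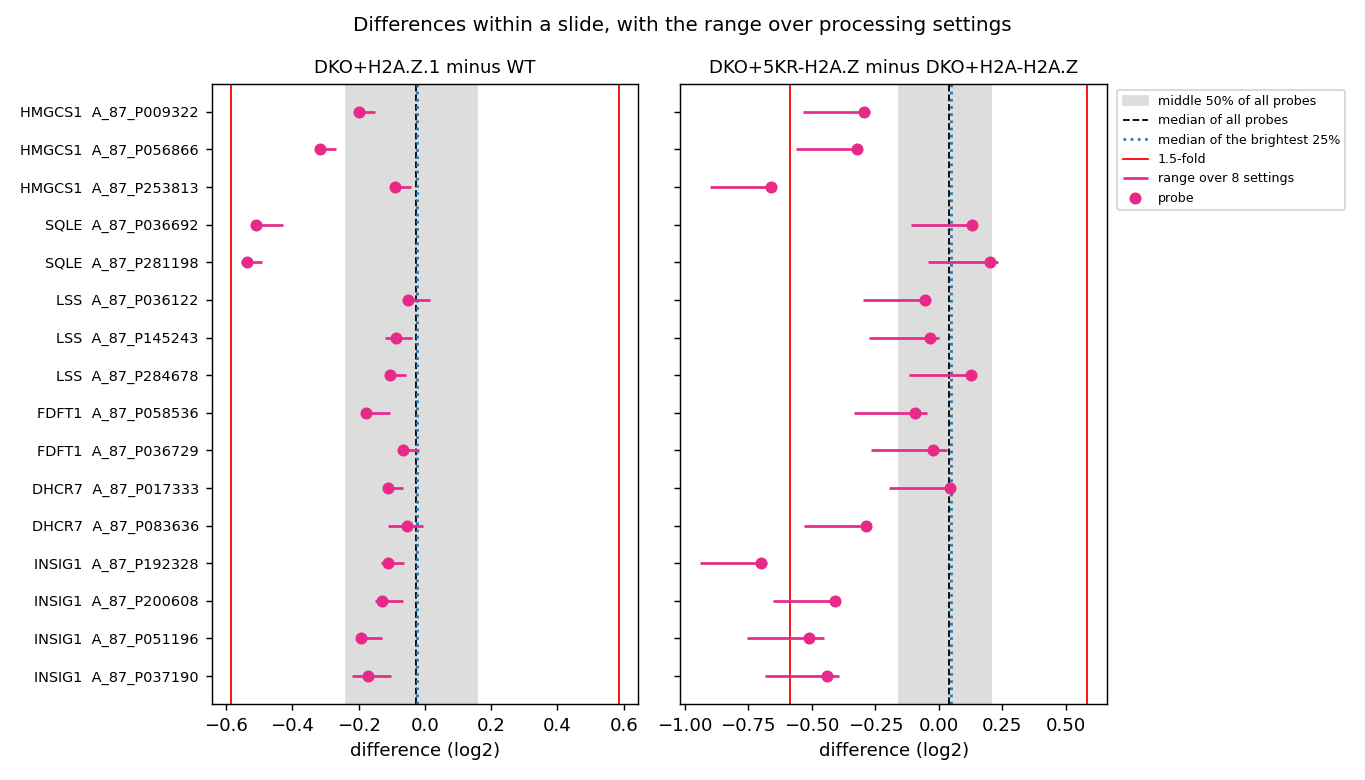
Log2 difference of each probe (x axis) in the H2A.Z.1 line minus WT and in the 5KR-H2A.Z line minus the H2A-H2A.Z line, drawn like the plot of the knockout comparisons. On the left the 2 SQLE points are furthest from 0 (-0.51 and -0.54), and on the right the 4 INSIG1 and 3 HMGCS1 points lie below 0 with the whole of their bars.

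Set against the lines on slide 1, the mutant lines gave values that slide and line share. Against DKO, 15 of 16 probes were lower in the 5KR-H2A.Z line, with a median of -0.40. All probes had a median of -0.06 with 45% above 0, and the brightest 25% had -0.19 with 25.8% above 0. In the H2A-H2A.Z line 12 of 16 were lower than in DKO, with a median of -0.22. All probes had -0.10 there with 42.9% above 0, and bright ones -0.24 with 26% above 0. The set was therefore near other bright probes in the H2A-H2A.Z line. In the 5KR-H2A.Z line 4 were at least 1.5-fold lower than in DKO, where 8.16% of all probes and 5.16% of bright ones were. In the H2A-H2A.Z line 2 were, where 14.2% of all probes and 13.3% of bright ones were. The DHCR7 differences from DKO were -0.59 and -0.89 in the 5KR-H2A.Z line and -0.63 and -0.60 in the H2A-H2A.Z line. INSIG1 was lower than in DKO on all 4 probes in the 5KR-H2A.Z line (-0.62 to -0.25), while in the H2A-H2A.Z line it gave 0.15, 0.09, 0.26 and -0.18. These comparisons share the DKO array. Of the 16 signs, 12 held in all 8 settings in the 5KR-H2A.Z line minus DKO and 5 in the H2A-H2A.Z line minus DKO, among them both DHCR7 probes in each.

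Comparisons with the H2A.Z.1 line all share its 1 array, so they are not separate observations of it. Against the H2A.Z.1 line, all 16 probes were higher in the H2A-H2A.Z line, with a median of 0.21 (all probes 0.02, of which 52.9% were above 0). Bright probes had a median of 0.03, with 57.5% above 0. HMGCS1 was higher there by 0.49, 0.33 and 0.54 and INSIG1 by 0.45, 0.40, 0.63 and 0.21. Of the 16, 1 was at least 1.5-fold higher (A_87_P051196 of INSIG1), where 6.59% of all probes and 1.18% of bright ones were. Of the 16 signs, 15 held in all 8 settings, and the exception was A_87_P058536 of FDFT1. In the 5KR-H2A.Z line 11 of 16 were higher than in the H2A.Z.1 line (median 0.14, all probes 0.04, of which 56% were above 0). Bright probes had a median of 0.07 there with 67.6% above 0, near the set's share. SQLE gave 0.31 and 0.30 and INSIG1 lay between -0.25 and 0.12, and 8 of the 16 signs held in all 8 settings. Against WT, the median was -0.11 in the 5KR-H2A.Z line, with 5 of 16 above 0, and 0.09 in the H2A-H2A.Z line, with 14 of 16 above 0. All probes had medians of 0.03 (53.4% above 0) and -0.004 (49.3%) in these comparisons. Bright probes had 0.06 (59.8%) and 0.01 (52.2%). SQLE was the gene that lay below WT in both mutant lines on both probes, with differences of -0.20 and -0.24 in the 5KR-H2A.Z line and -0.33 and -0.44 in the H2A-H2A.Z line, a direction that held in all 8 settings.

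The pathway was also read from a list of 22 cholesterol synthesis genes that includes the enzymes of the set. Of the 22, 10 could be named on the array, each by its brightest probe, and only 5 of these are outside the set. In DKO 9 of the 10 were above WT, with a median of 0.44 beside 0.15 over 4399 named genes. Of these named genes 60.9% were above 0. All 10 were read from probes among the brightest 25%, which had a median of 0.25 with 72.7% above 0. At least 1.5-fold higher were 2 (DHCR7 and HSD17B7), where 14.1% of named genes and 13.8% of bright probes were. HSD17B7 passed on its brightest probe only, and its other probe gave 0.39. The 5 outside the set were all above WT, with a median of 0.47, and 1 of the 5 was at least 1.5-fold higher. Among them, MSMO1 (0.42) and HSD17B7 (0.62) act after lanosterol, and ACAT2 (0.13) joins acetyl units at the start. The other ACAT2 probe gave -0.02. After spike-in scaling the median of the list turned to -0.053. Relative to the median of all named genes, MSMO1 and HSD17B7 lay above it and ACAT2 below it in all 8 settings. Of these settings, those that could move such a relative value appreciably were normexp, quantile normalization and cyclic loess.

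In the H2A.Z.1 line all 10 lay below DKO (5 of 10 after spike-in scaling), with a median of -0.60 beside -0.21 over 4334 named genes, of which 33.5% were above 0. The brightest 25% of probes had a median of -0.27, with 22.1% above 0. At least 1.5-fold lower were 5 of the 10 (DHCR7, FDFT1, SQLE, HSD17B7 and ACAT2), where 12.4% of named genes and 10.8% of bright probes were. The 5 genes outside the set had a median of -0.54, and 2 of them (HSD17B7 and ACAT2) were at least 1.5-fold lower. The other probe of HSD17B7 (-0.5848) and that of ACAT2 (-0.5818) fell just short of 1.5-fold. Relative to the median of named genes the brightest HMGCS1 probe lay above in all 8 settings and the other 9 genes below, but the other 2 HMGCS1 probes lay below the median of all probes in all 8. Here too normexp, quantile normalization and cyclic loess were the settings that could change this appreciably. Between the 5KR-H2A.Z line and the H2A-H2A.Z line the list's median was -0.12 beside 0.05. ACAT2 was the 1 gene at least 1.5-fold lower in the 5KR-H2A.Z line (-0.73, and -0.68 on its other probe). Of named genes 5.6% were as much lower, and of bright probes 1.62%. ACAT2 read 4.97 in the 5KR-H2A.Z line, 5.70 in the H2A-H2A.Z line, 5.12 in the H2A.Z.1 line, 5.77 in DKO and 5.64 in WT. Its low arrays were thus the 5KR-H2A.Z line and the H2A.Z.1 line, the latter at -0.52 against WT. The same 2 arrays were the lowest for INSIG1. There the H2A.Z.1 line gave only -0.19 to -0.11 against WT, inside the scanner error.

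Of 19 genes of sterol regulation and uptake, 8 were named and 7 tested; their median was 0.42 in DKO minus WT and -0.47 in the H2A.Z.1 line minus DKO, beside 0.15 and -0.21 over named genes. The brightest 25% of probes had medians of 0.25 and -0.27 in these comparisons. After spike-in scaling both medians of this list turned, to -0.081 with 2 of 7 above 0 and to 0.078 with 5 of 7 above 0. SREBF1, which encodes an SREBP, was higher in DKO by 0.63 on its brightest probe and by 0.10 on the other, at levels of -2.86 in the 5KR-H2A.Z line, -3.10 in the H2A-H2A.Z line, -3.20 in the H2A.Z.1 line, -2.61 in DKO and -3.25 in WT. STARD4, a sterol carrier, was higher in DKO by 0.73. INSIG1 was the 1 gene of this list at least 1.5-fold lower in the 5KR-H2A.Z line than in the H2A-H2A.Z line, where 5.6% of named genes were. It passed on its brightest probe only (-0.70), and its other probes gave -0.41, -0.51 and -0.44. MYLIP, a ligase that removes the LDL receptor, was the 1 gene as much higher, where 4.36% of named genes were. The MYLIP difference was 1.05, and 0.35 to 1.06 over the 8 settings. It rests on 1 dim probe, at levels of -5.01 in the 5KR-H2A.Z line and -6.06 in the H2A-H2A.Z line. The other MYLIP probe, not above background on any array, gave 0.25. Of 10 fatty acid synthesis genes, 7 were named and 6 tested, with medians of 0.54 in DKO minus WT and -0.58 in the H2A.Z.1 line minus DKO, beside the same 0.15 and -0.21, and of 0.048 and -0.039 after spike-in scaling. ELOVL5, an elongase, was the furthest at -1.13 in the H2A.Z.1 line minus DKO, followed by SCD, the desaturase that makes oleate, at -0.76.

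**Figure D4:**
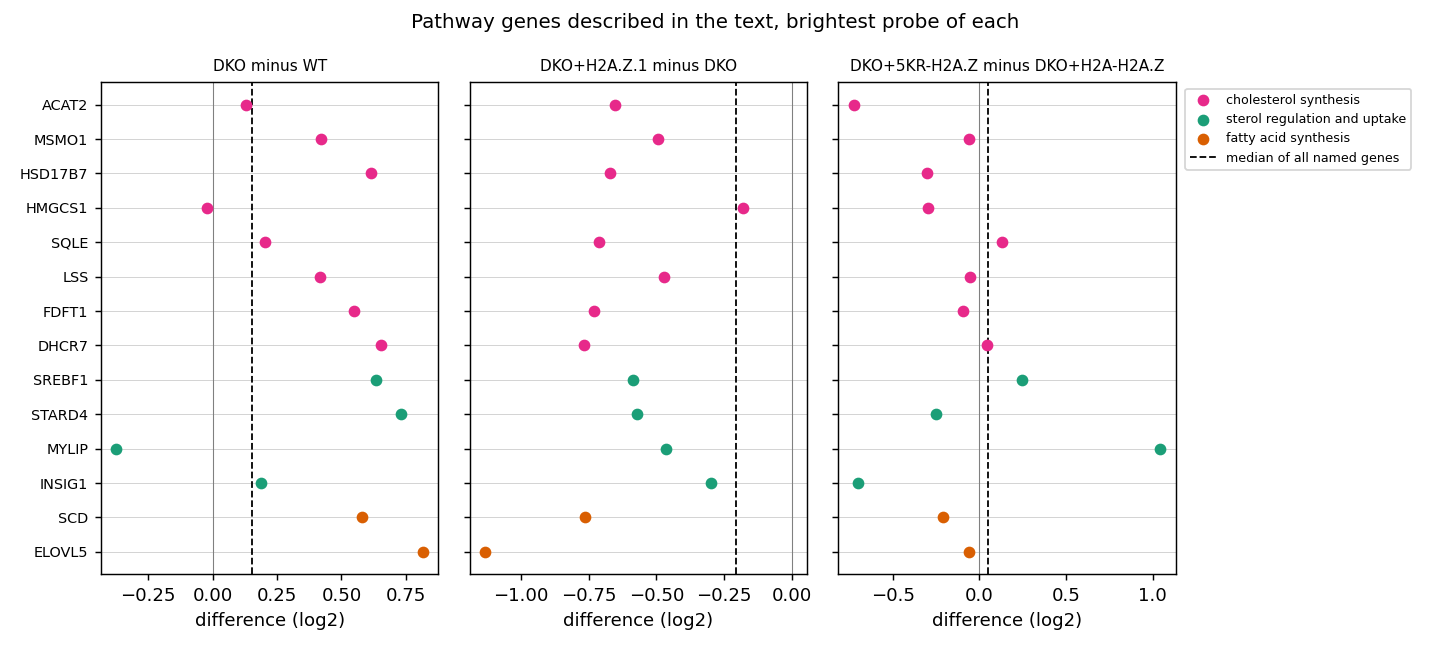
Log2 difference (x axis) of each pathway gene described in the text, by its brightest probe, in DKO minus WT, the H2A.Z.1 line minus DKO and the 5KR-H2A.Z line minus the H2A-H2A.Z line; colours mark the lists and the dashed line the median of all named genes. In the middle panel every cholesterol and fatty acid synthesis gene drawn lies below 0 as scaled here, though HMGCS1, LSS and MSMO1 lie above 0 after spike-in scaling, and in the right panel ACAT2 (-0.73) and INSIG1 (-0.70) are the lowest.

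For a mean profile of the 6 genes over the 5 arrays, each gene was read from its brightest probe and centred on its own mean. The profile was -0.10 in the 5KR-H2A.Z line, 0.06 in the H2A-H2A.Z line, -0.23 in the H2A.Z.1 line, 0.30 in DKO and -0.03 in WT. LSS and FDFT1 lay nearest to it, with root mean square differences of 0.0608 and 0.0869, and INSIG1 (0.185) and HMGCS1 (0.182) furthest. The HMGCS1 distance depends on the choice of probe, since DKO stood highest on the HMGCS1 probes that were not used. Over 4105 named genes well above background on every array, the 8 with the smallest difference from the profile were HMGA1 (0.0299), CBWD1 (0.0417), TNNI2 (0.0447), SAMHD1 (0.0514), SGK1 (0.0521), TCEB3 (0.0522), IDH2 (0.0527) and SEC31A (0.0530). None of the 8 is in the pathway lists. MSMO1 ranked 14. The measure rests on 5 arrays and is a description.

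How far the set stood from other probes depended on the processing in some comparisons and not in others. In DKO minus WT the set's median exceeded that of all probes by 0.13 as reported, but by 0.02 after normexp background correction and 0.05 after cyclic loess, and the gap was -0.01 after quantile normalization. In the H2A.Z.1 line minus DKO the gap ran from -0.33 to -0.23 over the 8 settings. It ran from -0.11 to -0.09 in the H2A.Z.1 line minus WT and from -0.27 to -0.23 in the 5KR-H2A.Z line minus the H2A-H2A.Z line. DHCR7 and FDFT1 were above the median of all probes in DKO minus WT, and DHCR7, FDFT1 and SQLE below it in the H2A.Z.1 line minus DKO, on both probes in all 8 settings. Median centring, spike-in scaling and the authors' table move all probes of an array together, so they cannot change a gap to the median. Keeping marked spots barely moved the gap either. The settings that could change it were normexp, quantile normalization and cyclic loess.

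**Figure D5:**
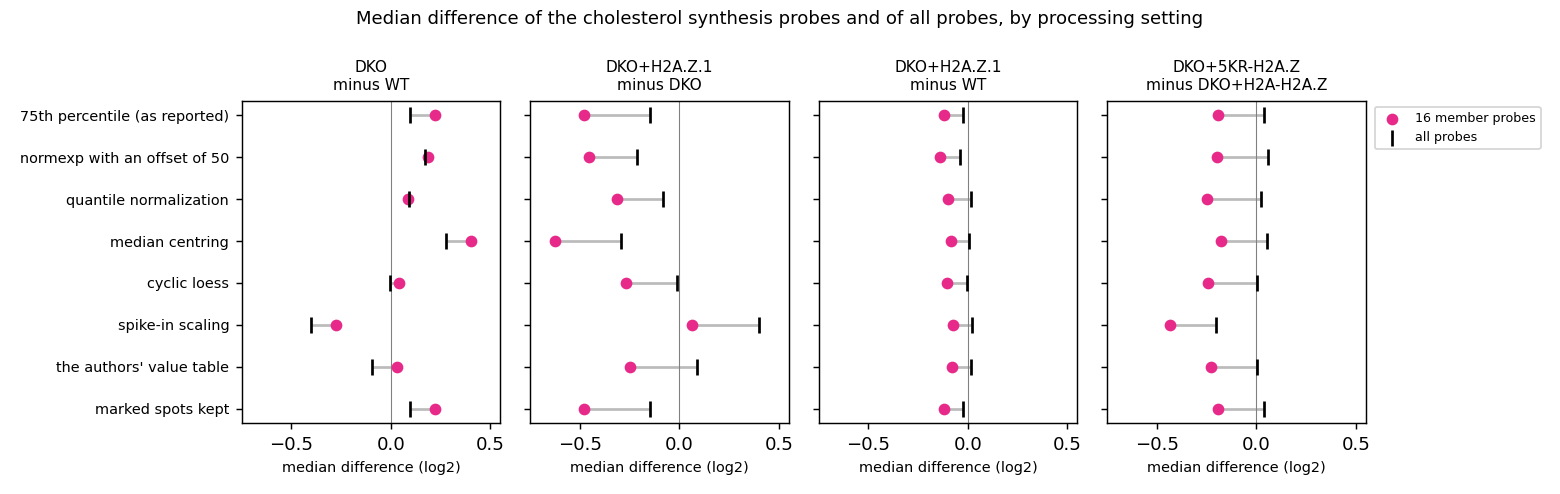
Median log2 difference (x axis) of the 16 probes (points) and of all probes (ticks) in 4 comparisons under each of 8 processing settings, which run down the page. Point and tick shift together after median centring, after spike-in scaling (the furthest) and in the authors' value table, and the gap between them closes in DKO minus WT after quantile normalization but not in the other 3 comparisons.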

How the data were processed

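RNA of 5 DT40 lines was read on 1 Agilent one-colour array each, from 100 ng labelled RNA, per the labels. Per the file headers, the scans were quantified by Agilent Feature Extraction, version 11.5.1.1. What the authors deposited per spot is a processed signal, a linear intensity from which background has been subtracted, beside median spot and background intensities and quality marks. The authors' value table holds an intensity equal to the processed signal times 1 constant per array, 1.03 for the H2A.Z.1 line to 1.23 for DKO. It is linear and not centred, its column medians are 92.1 to 121.7, and the basis of that constant is not stated in the sources used here.

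On the log2 scale, each array was centred on the 75th percentile of its spots, controls left out. Between 2 and 37 spots per array carried an outlier mark and were dropped, and repeat spots were averaged per probe. Names came from the unversioned RefSeq accession in the files and a RefSeq gene table of assembly GRCg7b: 11935 of 43603 matched. Since the files were annotated on galGal3, coordinates are not printed. A comparison took in the probes that stood well above background on either of its 2 arrays. Genes outside the set, and members within the pathway lists and the mean profile, were read from the brightest probe.

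The named genes were all members with every probe, the other genes of 3 pathway lists by count, range and examples, and the 8 genes nearest to the members' mean profile. Some genes of these lists, and 1 further list, are not reported here. Members and lists were chosen with earlier results of these data known. Counts past 1.5-fold (2-fold as an alternative), medians and ranges are descriptions; with 1 array per line no test was made, and the number of arrays limits the precision. The alternatives are given under the dependence on processing. A planned motif search in promoters was not run, since no promoter sequences were used here. Normexp used median spot and background intensities. The steps were tested on simulated data. Calculations used Python 3.11.15, numpy 2.4.6, pandas 2.3.3, matplotlib 3.10.9, R 4.3.3 and limma 3.58.1.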

Additional observations from a re-analysis of the deposited data

How the results depend on the processing

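Normexp with an offset of 50 and marked spots kept left all 12 results they were run on within the replicate-spot spread, or within 1.5 times for counts. A filter on all 5 arrays could change nothing, since every probe these results use passes it. The median and count of the H2A.Z.1 line minus WT did not move beyond that under any alternative run.

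For DKO minus WT, the median of 0.22 became 0.085 after quantile normalization, 0.40 after median centring, 0.042 after cyclic loess, -0.27 after spike-in scaling, 0.031 in the authors' value table and 0.31 with the brightest probe of each gene. The count of 3 probes past 1.5-fold became 1 after quantile normalization, 6 after median centring, and 0 after cyclic loess, after spike-in scaling, in the authors' table and at 2-fold. The cholesterol list's median of 0.44 became 0.19, 0.62, 0.18, -0.053 and 0.25 after quantile normalization, median centring, cyclic loess, spike-in scaling and in the authors' table.

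For the H2A.Z.1 line minus DKO, the median of -0.48 became -0.31 after quantile normalization, -0.63 after median centring, -0.27 after cyclic loess, 0.065 after spike-in scaling, -0.25 in the authors' table and -0.59 with the brightest probe. The count of 6 became 3, 10, 1, 0 and 0 in the first 5 of these, and 0 at 2-fold. The list's median of -0.60 became -0.25, -0.74, -0.27, -0.054 and -0.37 in the same 5.

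For the 5KR-H2A.Z line minus the H2A-H2A.Z line, the median of -0.19 became -0.43 after spike-in scaling and -0.075 with the brightest probe, and the count of 2 became 5 after spike-in scaling and 0 at 2-fold. Against DKO, the median of the 5KR-H2A.Z line, -0.40, became -0.30, -0.59, -0.25, -0.12 and -0.24 after quantile normalization, median centring, cyclic loess, spike-in scaling and in the authors' table. That of the H2A-H2A.Z line, -0.22, became -0.057, -0.42, -0.036, 0.30 and -0.015 in the same 5, and -0.37 with the brightest probe.

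Median centring, spike-in scaling and the authors' table move every probe of an array together; quantile normalization and cyclic loess also move probes against each other. Which is right was not tested. Spike-in scaling rests on 8 probes. No paired analysis was possible because each line has 1 array, so the lines share only the number 1. Leaving out a replicate was not possible for the same reason. The 16 probes stood well above background on all arrays, so dimness does not limit them; the missing replicates do.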
